A study of Mus musculus with 5 samples.

Results

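Megakaryocyte and platelet genes were followed in sorted mouse blood stem and progenitor cells with and without the Rb family of cell cycle regulators. They are 10 genes fixed by name: Pf4, Ppbp, Gp5, Gp6, Gp9, Vwf, Plek, Cd9, Selp and Thbs1. Every probe set that the platform annotation gives to one of them alone was used, which makes 15 probe sets of 45037 on the array and 10 genes of 18193. The deficient group had the labelled genotype Rb -/- p130 -/- p107-/- (3 arrays, titled Rb family deficient), and the group titled Wild Type had Rb +/+ p130 +/+ p107+/- (2 arrays), so it too lacked 1 copy of p107. Rb, p130 and p107 are the pocket proteins, which hold E2F transcription factors in check. All labels give the same protocol: Mx1Cre, a recombinase whose promoter responds to interferon and which acts in more tissues than blood, was switched on at 6 weeks of age, and KLS cells (positive for Kit and Sca-1 and free of lineage markers) were sorted 2 months later. The study ran 6 hybridisations and set 1 aside, and the labels do not say whether an array holds 1 animal or a pool, so the p-values below measure only the spread between these samples, which may be technical.

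Megakaryocytes are the large polyploid cells of the bone marrow that shed platelets. They arise from stem cells through progenitors that GATA1, FLI1, RUNX1 and NFE2 steer, and they fill platelet granules with chemokines and adhesive proteins while placing glycoprotein receptors on the surface. Part of this programme is already transcribed in mouse haematopoietic stem cells, where Vwf and Pf4 mark a platelet-biased subset. In a bulk sort, fewer cells of a type and less RNA per cell cannot be told apart.

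The arrays had median log2 intensities of 4.71 to 4.74, and pairwise correlations over all probe sets ran from 0.979 to 0.993. None of the 7 measured stem and progenitor markers was below the array median on all arrays, but 5 of the 7 had a lower mean in deficient cells, with a median difference of -0.33. The brightest of them lay close between groups: the stem cell factor receptor gene Kit read 10.88 to 11.25 on deficient and 10.83 to 11.08 on wild type arrays, and Cd34 11.79 to 12.27 on deficient and 11.86 to 12.03 on wild type arrays. Procr, the endothelial protein C receptor gene that marks long-term stem cells, was the 1 of the 7 that fell. That is 14.3%, against 1.41% of all genes. Its difference was -1.62 (limma adjusted p = 0.0305 with 1 probe set per gene and 0.0560 over all probe sets). Before adjustment, 0 of the 7 were higher and 2 (28.6%) lower at p under 0.05 in limma, against 8.79% and 9.86% of all genes. The part of Procr in the values of Vwf and Pf4, which also mark stem cells, was not tested. Rbl1, which encodes p107, read 4.25 to 5.15 on deficient and 7.16 to 8.33 on wild type arrays (difference -3.04, limma adjusted p = 0.0266 with 1 probe set per gene and 0.0513 over all probe sets). Rb1 and Rbl2, which encode Rb and p130, differed by -0.36 and -0.46 and did not pass, and whether their probes lie in the deleted parts is not known here. Deficient array 2 and wild type array 2 stood apart by sex-linked transcripts. Xist, the RNA of the silenced X chromosome, read 12.45 there against 5.09 and 5.51 on deficient arrays 1 and 3, and 6.12 and 10.67 on wild type arrays 1 and 2. The Y-linked gene Eif2s3y read 3.50 on deficient array 2 and 9.81 to 10.37 on the other 4 arrays, so that wild type array 2 was high in both transcripts.

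None of the 10 genes changed past the threshold. In limma over all probe sets, 0 of the 15 were higher and 0 lower at an adjusted p under 0.05, where 0.491% of all probe sets passed, and the smallest adjusted p was 0.304. At an unadjusted p under 0.05, 1 of the 15 (6.67%) passed, that of Gp5, against 14.1% of all probe sets. With 1 probe set per gene, 0 of 10 genes passed. The means pointed both ways: 7 probe sets had a higher and 8 a lower mean in deficient cells. The deficient and wild type arrays did not overlap on 4 probe sets in the higher direction (26.7%, against 15.4% of all probe sets) and on 2 in the lower (13.3%, against 15.2%). Of the 4 higher ones, 3 belong to Selp and 1 to Gp5, while the 2 lower ones are those of Pf4 and Cd9. On 6 of the 15 the gap between the 2 wild type arrays was wider than the difference between the group means. The median difference over the 10 genes was -0.08 log2 units, beside -0.01 over all genes.

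**Figure D1:**
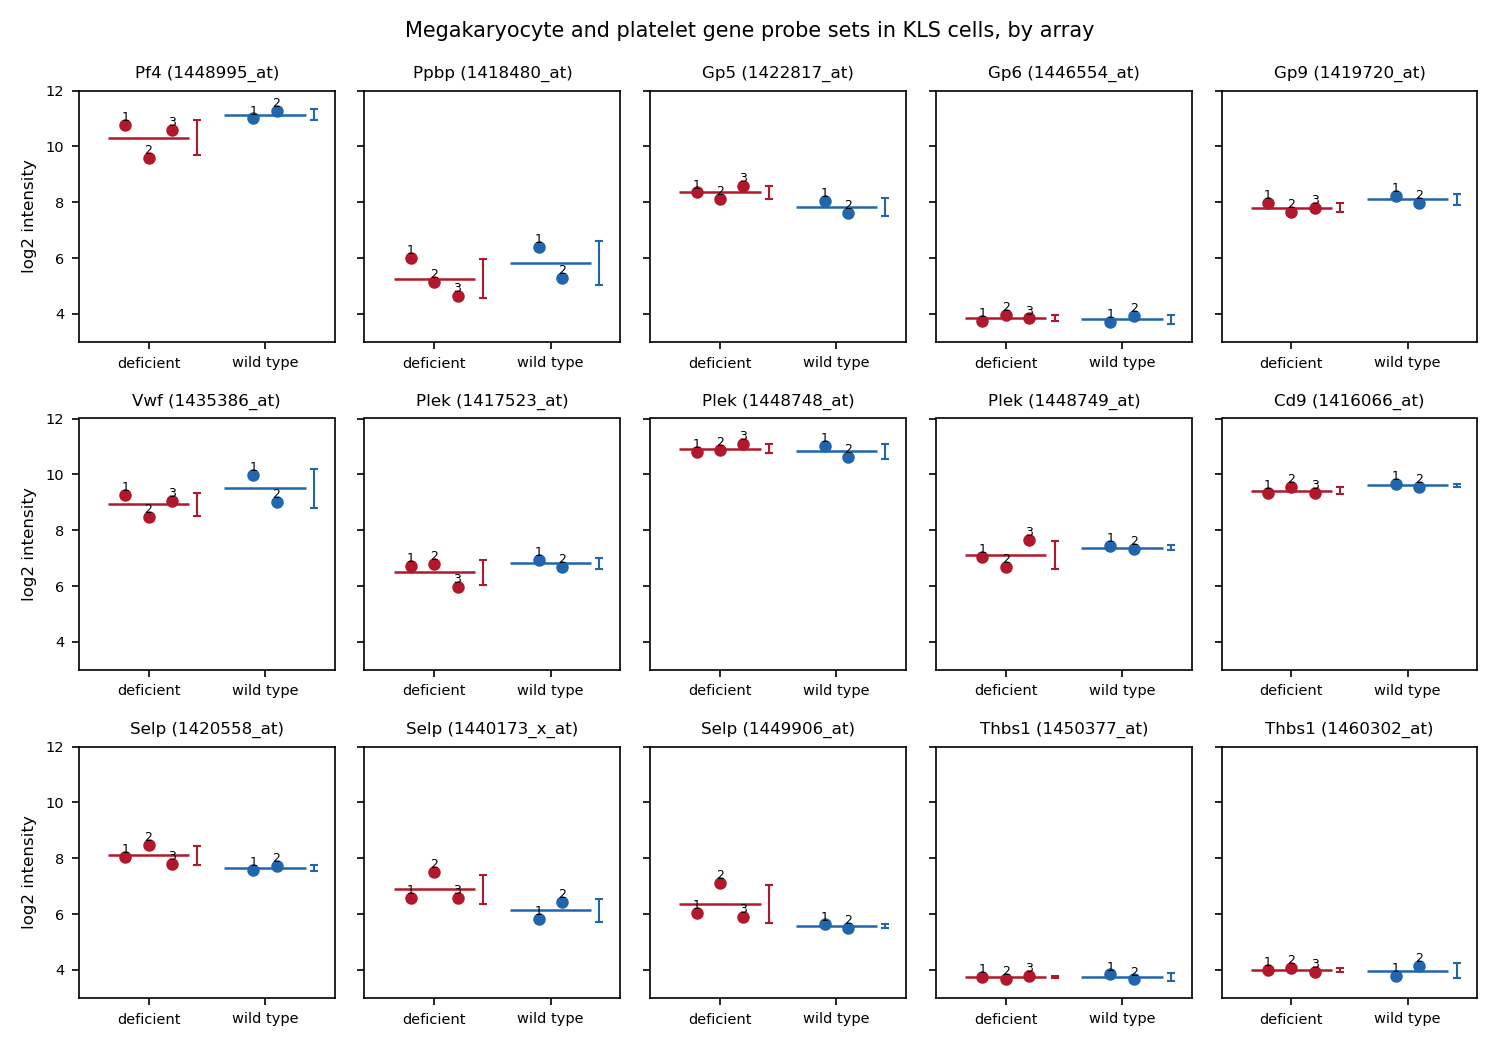
Log2 intensity of the 15 member probe sets in KLS cells, deficient arrays (red, 1 to 3) left of wild type arrays (blue, 1 and 2), with the group mean as a line and the SD as a bar. The deficient arrays lie above both wild type arrays for Gp5 and the 3 Selp probe sets and below both for Pf4 and Cd9, and Gp6 and Thbs1 sit near 4 on every array.

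The platelet chemokines came first by role. Pf4 encodes platelet factor 4, a heparin-binding chemokine packed into alpha granules. It read 10.76, 9.59 and 10.59 on deficient arrays 1 to 3, against 11 and 11.27 on wild type arrays 1 and 2. All deficient values lay below both wild type values, with deficient array 2 more than 1 log2 unit below the wild type arrays. The difference was -0.82 (SE 0.36, 95% interval -1.69 to 0.05), a ratio of 0.567, and did not pass (limma, adjusted p = 0.389). Without deficient array 2 it was -0.46, and without deficient array 1 it was -1.04. Ppbp, the gene next to Pf4 in the RefSeq annotation of GRCm38.p6, encodes pro-platelet basic protein, the precursor of a neutrophil-attracting chemokine. Ppbp read 6.01, 5.15 and 4.65 on deficient arrays, against 6.39 and 5.28 on wild type arrays. The groups overlapped, and on deficient array 3 the value was below the array median. Its difference of -0.57 (SE 0.48, limma adjusted p = 0.701) was -1.12 without wild type array 2 and -0.01 without wild type array 1, so its size rested on wild type array 1.

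The 2 measured leucine-rich members of the von Willebrand factor receptor had opposite signs. This receptor, the GPIb-IX-V complex, lets platelets catch on a damaged vessel wall. Gp5 encodes glycoprotein V, a subunit that thrombin cleaves, and read 8.35, 8.13 and 8.57 on deficient arrays, against 8.05 and 7.61 on wild type arrays. Every deficient value was above both wild type values, the nearest pair being deficient 2 and wild type 1. The difference was 0.52 (SE 0.19, 95% interval 0.05 to 0.99), or 1.44-fold, with limma adjusted p = 0.304. It ran from 0.30 without wild type array 2 to 0.74 without wild type array 1. Gp9 encodes glycoprotein IX, which is needed for the complex to reach the surface, and read 7.98, 7.64 and 7.79 on deficient arrays, against 8.24 and 7.96 on wild type arrays. Deficient array 1 fell between the wild type arrays. The Gp9 difference was -0.29 (SE 0.15, 95% interval -0.67 to 0.08, limma adjusted p = 0.488), and it was -0.15 without wild type array 1 and -0.43 without wild type array 2.

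The partner subunit gene Gp1bb, which encodes the beta chain of glycoprotein Ib, is no member but completes this receptor. It read 9.07, 9.10 and 9.41 on deficient arrays, against 8.53 and 9.0 on wild type arrays (difference 0.43, limma adjusted p = 0.298 with 1 probe set per gene). Without wild type array 2 that difference was 0.66 and without wild type array 1 it was 0.19. A dimmer Gp1bb probe set differed by 0.09. The log2 ratio of Gp5 to Gp9 within an array was 0.37, 0.49 and 0.79 on deficient arrays, against -0.18 and -0.35 on wild type arrays. The groups did not overlap, and the ratio was 0.81 higher in deficient cells (two-sided exact permutation test, p = 0.1, the smallest that 3 against 2 arrays allow). The ratio of Gp9 to Gp1bb was 0.72 lower (-0.72, exact permutation p = 0.2), and that of Gp5 to Gp1bb differed by 0.10 (exact permutation p = 0.8). These ratios were chosen after the values were seen, as was a further one for the integrin pair, given below.

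**Figure D2:**
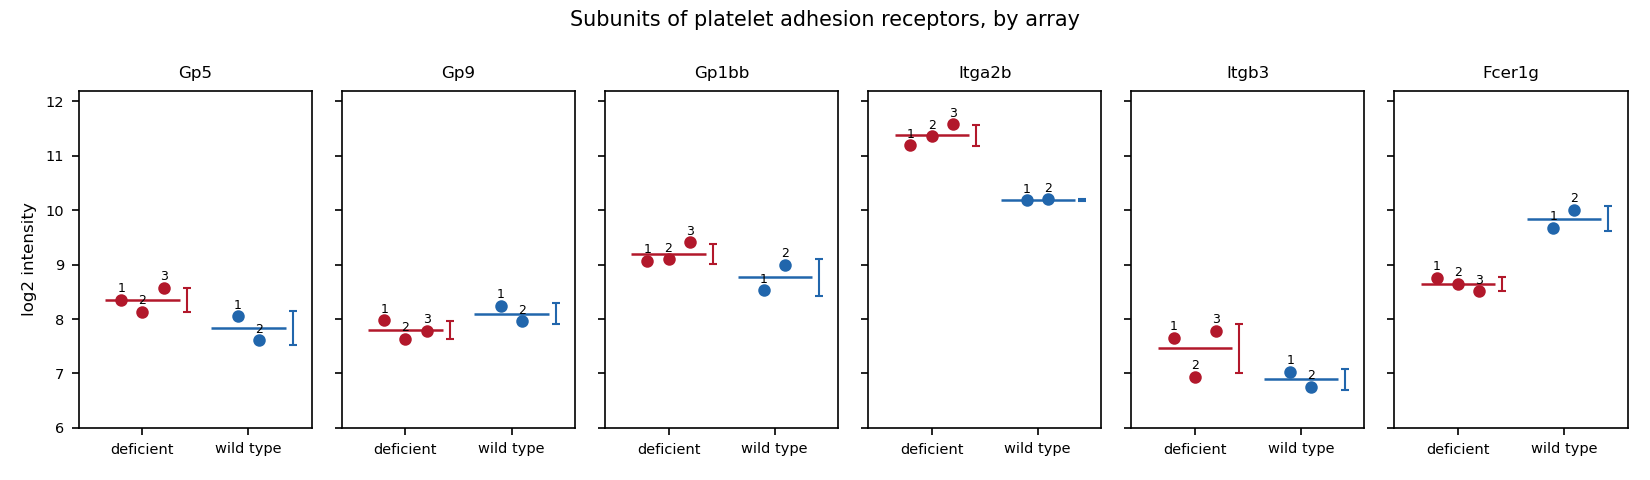
Log2 intensity of subunit genes of 3 platelet adhesion receptors, deficient arrays (red) left of wild type arrays (blue), with group means as lines and SDs as bars. Gp5 and Gp1bb lie higher and Gp9 lower in deficient cells by less than 0.6, while Itga2b is 1.19 higher and Fcer1g 1.21 lower.

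Start-site sequences are shown for Gp5 and Gp9, because these subunit genes differed in sign, and for Pf4 and Selp, because they had the largest lower and higher differences among the members. Each line holds the 150 bases before the RefSeq start site in GRCm38.p6, read 5′ to 3′ on the gene's strand. Gp5 lies at chr16:30310782-30310931 (minus strand), Gp9 at chr6:87777920-87778069 (plus strand), Pf4 at chr5:90772285-90772434 (plus strand) and Selp at chr1:164115114-164115263 (plus strand). Capitals mark GATA letters (AGATAA or TGATAA) and ETS letters (AGGAAG or CGGAAG) on either strand.
Gp5: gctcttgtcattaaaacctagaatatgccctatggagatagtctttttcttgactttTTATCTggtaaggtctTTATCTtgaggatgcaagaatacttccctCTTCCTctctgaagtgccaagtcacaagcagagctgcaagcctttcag
Gp9: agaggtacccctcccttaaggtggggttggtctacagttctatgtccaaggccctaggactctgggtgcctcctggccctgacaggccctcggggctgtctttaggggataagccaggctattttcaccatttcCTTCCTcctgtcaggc
Pf4: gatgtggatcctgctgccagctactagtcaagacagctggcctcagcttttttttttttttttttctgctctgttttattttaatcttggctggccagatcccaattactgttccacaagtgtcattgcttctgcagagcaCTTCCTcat
Selp: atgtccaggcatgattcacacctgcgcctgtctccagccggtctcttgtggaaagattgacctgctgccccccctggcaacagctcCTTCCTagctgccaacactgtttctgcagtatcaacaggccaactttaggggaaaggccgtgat

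Windows of 250 bases before to 50 after the start were matched for 8 of the 10 members. ETS letters stood in 5 of the 8 and in 46.5% of 32851 windows of that length. GATA letters stood in 3 of the 8 (Pf4, Gp5 and Gp6) and in 18.6% of all windows. Counting bases from the start site, with negative numbers before it, Gp5 had 2 GATA matches, beginning at -93 and -77, and an ETS match at -48. The ETS match shown begins at -16 in Gp9, at -9 in Pf4 and at -64 in Selp, and the GATA match of Pf4 lies past the start, at 37. E2F letters (TTTCCCGC, TTTGGCGC, TTTGCCGC or TTTCGCGC, both strands) stood in 0 of the 8 and in 2.26% of all windows. A match is a run of letters, not a site shown to be bound, and none of the matches overlapped a match of another motif.

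The collagen receptor gene Gp6 was below the array medians throughout. Glycoprotein VI is the receptor through which platelets answer collagen. It read 3.75, 3.95 and 3.84 on deficient arrays, against 3.70 and 3.92 on wild type arrays. The groups overlapped. Its signalling partner Fcer1g, the Fc receptor gamma chain, did fall. Fcer1g read 8.76, 8.65 and 8.51 on deficient arrays, against 9.68 and 10.01 on wild type arrays (difference -1.21, SE 0.15, limma adjusted p = 0.0224 with 1 probe set per gene and 0.0456 over all probe sets). This chain also serves Fc receptors of granulocytes, mast cells and NK cells. The 9 neutrophil marker genes all fell (100%, against 1.41% of all genes). Their summed intensity was 1320 to 2340 on deficient and 49600 to 60700 on wild type arrays. Their part in the Fcer1g result was not tested.

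The adhesive proteins and the membrane proteins of granules did not move as a block. Vwf encodes von Willebrand factor, the multimeric ligand of the GPIb complex, made by megakaryocytes and endothelium. It read 9.27, 8.48 and 9.04 on deficient arrays, against 9.99 and 9.01 on wild type arrays. Only wild type array 1 stood clear of the deficient arrays. The difference was -0.57 (SE 0.35, 95% interval -1.43 to 0.29, limma adjusted p = 0.566). Without wild type array 1 it was -0.08, and without wild type array 2 it was -1.06. Endothelial markers were read beside it: 9 of 10 had a lower mean in deficient cells. Of the 10, 1 fell (Emcn, endomucin), or 10% against 1.41% of all genes. Before adjustment, 0 were higher and 7 (70%) lower at p under 0.05 in limma, against 8.79% and 9.86% of all genes. The summed intensity of the 10 was 1450 to 1980 on deficient arrays and 3190 and 2060 on wild type arrays 1 and 2. The cadherin gene Cdh5 was below the array median on all arrays. The part of the endothelial markers in the Vwf values was not tested.

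Selp showed the most even direction among the members with several probe sets. It encodes P-selectin, a granule membrane protein that activated platelets and endothelium display to catch leukocytes. The brightest Selp probe set read 8.03, 8.46 and 7.81 on deficient arrays, against 7.57 and 7.73 on wild type arrays. The second in mean brightness read 6.58, 7.50 and 6.58 on deficient arrays, against 5.84 and 6.42 on wild type arrays. The dimmest read 6.05, 7.13 and 5.91 on deficient arrays, against 5.63 and 5.51 on wild type arrays. On all 3 the deficient values lay above both wild type values, and deficient array 2 was the highest. The differences were 0.45 (SE 0.20), 0.76 (SE 0.34) and 0.80 (SE 0.37), or 1.36-fold, 1.69-fold and 1.74-fold, with limma adjusted p-values of 0.415, 0.402 and 0.419. Without deficient array 2 they were 0.27, 0.45 and 0.42. The probe sets read the same RNA samples, so they are not independent of each other.

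**Figure D3:**
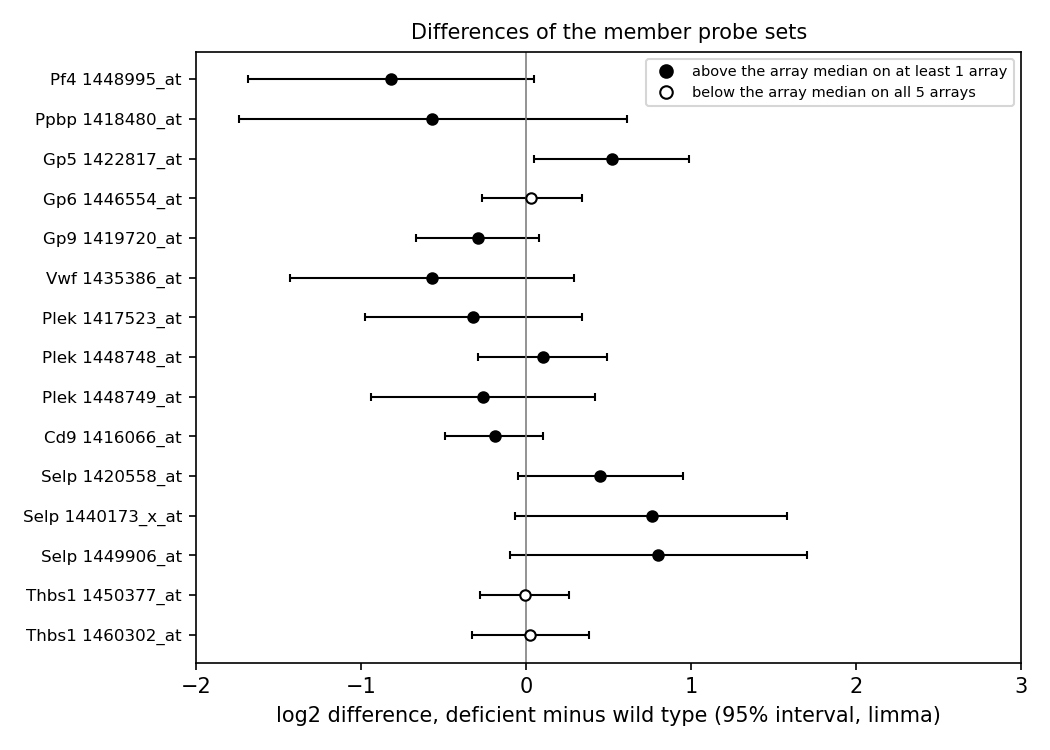
Log2 difference, deficient minus wild type, of the 15 member probe sets with 95% intervals from limma; open circles are below the array median on all 5 arrays. The interval of Gp5 alone leaves out 0, at 0.05 to 0.99, and Pf4 has the largest difference in size, -0.82.

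Thbs1 encodes thrombospondin 1, an adhesive alpha granule protein also made by macrophages and stroma. Both of its probe sets were below the array medians on all 5 arrays. They read 3.69 to 3.77 on deficient and 3.66 to 3.84 on wild type arrays on the dimmer of them, and 3.92 to 4.07 on deficient and 3.78 to 4.16 on wild type arrays on the brighter. No ratio is given for Thbs1 or Gp6, since such dim values carry no measured level.

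The membrane organiser Cd9 and the signalling protein Plek had small differences. Cd9 encodes a tetraspanin abundant on platelets and on stem cells. It read 9.33, 9.56 and 9.34 on deficient arrays, against 9.65 and 9.56 on wild type arrays. All deficient values were at or below the lower wild type value, by a margin that vanished to the second decimal between deficient array 2 and wild type array 2. The difference was -0.19 (SE 0.12, 95% interval -0.49 to 0.10, limma adjusted p = 0.577). Plek encodes pleckstrin, a main substrate of protein kinase C in platelets, also found in myeloid cells. Its brightest probe set read 10.81, 10.87 and 11.09 on deficient arrays, against 11.02 and 10.63 on wild type arrays, with overlapping groups. That difference was 0.10 (SE 0.16, 95% interval -0.29 to 0.49, limma adjusted p = 0.866). The other probe sets of Plek pointed the other way, by -0.26 (SE 0.28) on the second in mean brightness and -0.32 (SE 0.27) on the dimmest, so the gene has no agreed sign. Without deficient array 2 the second probe set differed by -0.04, and without deficient array 3 the dimmest differed by -0.06.

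The intervals give a limited view of what could have been missed. Like the p-values, they rest only on the spread between these samples, which may be technical. They are not adjusted for the number of probe sets. Of the 11 probe sets above the array median on every array, 7 had a 95% interval that stayed within 1 log2 unit either way, that is, within 2-fold: Gp5, Gp9, Cd9, all 3 of Plek and the brightest of Selp. The intervals of Pf4, Vwf and the other two Selp probe sets reached beyond 2-fold, as did that of Ppbp. For those a 2-fold difference is not excluded by the interval. An interval within 2-fold does not mean that such a difference would have passed. Ets1 had a difference of -1.0 and an SE of 0.18. It did not pass (limma adjusted p = 0.0578 with 1 probe set per gene and 0.0940 over all probe sets). RMA compresses differences of dim probe sets, so the narrow intervals of Gp6 and Thbs1 bound nothing.

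Other genes of the programme were read from 5 lists of transcription regulators, receptors, granule cargo, granule formation and cytoskeleton with signalling. Of 94 genes, 87 had a probe set of their own, and the rest are not analysed here. Taking 1 probe set for each gene, 2 of the 87 rose (2.30%, against 0.830% of all genes) and 4 fell (4.60%, against 1.41%), and 81 did not pass. Their median difference was -0.03, beside -0.01 over all genes. Before adjustment, 9 (10.3%) were higher and 20 (23.0%) lower at p under 0.05 in limma, against 8.79% and 9.86% of all genes.

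Itga2b was the surface gene that rose. It encodes integrin alpha IIb (CD41), the fibrinogen receptor chain of megakaryocytes and platelets, which stem and myeloid progenitor cells also carry. Itga2b read 11.19, 11.36 and 11.58 on deficient arrays, against 10.18 and 10.20 on wild type arrays. All deficient values were about 1 log2 unit or more above both wild type values. The difference was 1.19 (SE 0.14), or 2.28-fold (limma, adjusted p = 0.0219 with 1 probe set per gene and 0.0422 over all probe sets). Its partner Itgb3, integrin beta 3, read 7.66, 6.94 and 7.78 on deficient arrays, against 7.03 and 6.75 on wild type arrays, with overlap at deficient array 2 (difference 0.57, limma adjusted p = 0.337). A dimmer Itgb3 probe set, below the array medians, differed by -0.18. With the brighter Itgb3 probe set, the log2 ratio of Itga2b to Itgb3 was 0.62 higher in deficient cells (exact permutation p = 0.2). Of the 20 measured receptor genes 1 rose (Itga2b), 1 fell (Fcer1g, given above) and 18 did not pass. Each call is 5% of the list, against 0.830% higher and 1.41% lower of all genes. Before adjustment, 1 (5%) was higher and 6 (30%) lower at p under 0.05 in limma, against 8.79% and 9.86% of all genes. Clec1b, the podoplanin receptor CLEC-2, differed by -1.25 (limma adjusted p = 0.0528) and the ATP-gated channel gene P2rx1 by -0.64 (limma adjusted p = 0.0965). Itga6, the laminin receptor chain, differed by 0.30 (limma adjusted p = 0.471).

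Granule cargo split in 2 directions. Of 15 measured genes 1 rose and 1 fell (6.67% each, against 0.830% and 1.41% of all genes). Before adjustment, 2 (13.3%) were higher and 4 (26.7%) lower at p under 0.05 in limma, against 8.79% and 9.86% of all genes. Tgfb1, a growth factor gene active in most blood cells, rose to 8.70, 8.80 and 8.93 on deficient arrays, against 7.46 and 7.76 on wild type arrays (difference 1.2, SE 0.14, limma adjusted p = 0.0204). A dimmer Tgfb1 probe set overlapped between groups (difference 0.16, limma adjusted p = 0.708 over all probe sets). Ccl5, a chemokine gene of platelets and of T and NK cells, fell to 6.86, 6.71 and 7.12 on deficient arrays, against 9.42 and 8.56 on wild type arrays (difference -2.09, SE 0.27, limma adjusted p = 0.0251). The T and NK cell list had 2 of 8 members that fell (Cd247 and Klrd1), or 25% against 1.41% of all genes, and 6 that did not pass. Before adjustment, 1 (12.5%) was higher and 3 (37.5%) lower at p under 0.05 in limma, against 8.79% and 9.86% of all genes. In that list 6 of 8 means were lower in deficient cells. Its summed intensity, carried mostly by Nkg7, was 2400 to 3030 on deficient and 1690 to 2430 on wild type arrays, and its part in the Ccl5 result was not tested. The other 13 measured cargo genes did not pass, among them Clu, the chaperone clusterin (difference -1.07, limma adjusted p = 0.0700), and Mmrn1, the factor V carrier multimerin (difference -2.51, limma adjusted p = 0.146). Mmrn1 read 8.78, 6.24 and 8.07 on deficient arrays, against 10.73 and 9.68 on wild type arrays, and its difference was -1.79 without deficient array 2.

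Of 20 cytoskeleton and signalling genes 0 rose, 2 fell (10%, against 1.41% of all genes) and 18 did not pass. Before adjustment, 3 (15%) were higher and 8 (40%) lower at p under 0.05 in limma, against 8.79% and 9.86% of all genes. Gng11, a G protein gamma subunit gene, fell to 9.10, 8.92 and 9.13 on deficient arrays, against 10.69 and 10.17 on wild type arrays (difference -1.38, SE 0.18, limma adjusted p = 0.0251). Tbxas1, thromboxane synthase, which macrophages make as well, fell to 8.81, 9.12 and 8.84 on deficient arrays, against 10.39 and 9.92 on wild type arrays (difference -1.24, SE 0.18, limma adjusted p = 0.0356). The 9 measured monocyte and macrophage markers had 0 members past the threshold in limma (before adjustment, 0 higher and 3 lower at p under 0.05, or 33.3% lower against 9.86% of all genes) and a summed intensity of 1550 to 2240 on deficient and 2320 to 3220 on wild type arrays. Cx3cr1, Mrc1 and C1qb of that list were below the array median on all arrays, and its part in the Tbxas1 result was not tested. Syk, the kinase downstream of glycoprotein VI and CLEC-2, differed by 0.61 (limma adjusted p = 0.0638) and the actin-linked Pdlim1 by -0.64 (limma adjusted p = 0.0700).

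Leaving out 1 array ended most of these 6 calls. With 1 left out, Itga2b passed without deficient array 1 and in none of the other 4 fits. Tgfb1, Ccl5, Gng11 and Tbxas1 passed without wild type array 2 only, and Fcer1g in 0 of 5. The adjusted p-values of the 6 then lay between 0.0227 and 0.112, while the differences stayed between 1.09 and 1.28 for Itga2b, 1.05 and 1.35 for Tgfb1, -1.37 and -1.04 for Fcer1g, -2.52 and -1.66 for Ccl5, -1.64 and -1.12 for Gng11, and -1.47 and -1.0 for Tbxas1. In the fit over all 45037 probe sets, Ccl5, Gng11 and Tbxas1 did not pass (limma, adjusted p = 0.0510, 0.0501 and 0.0615).

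**Figure D4:**
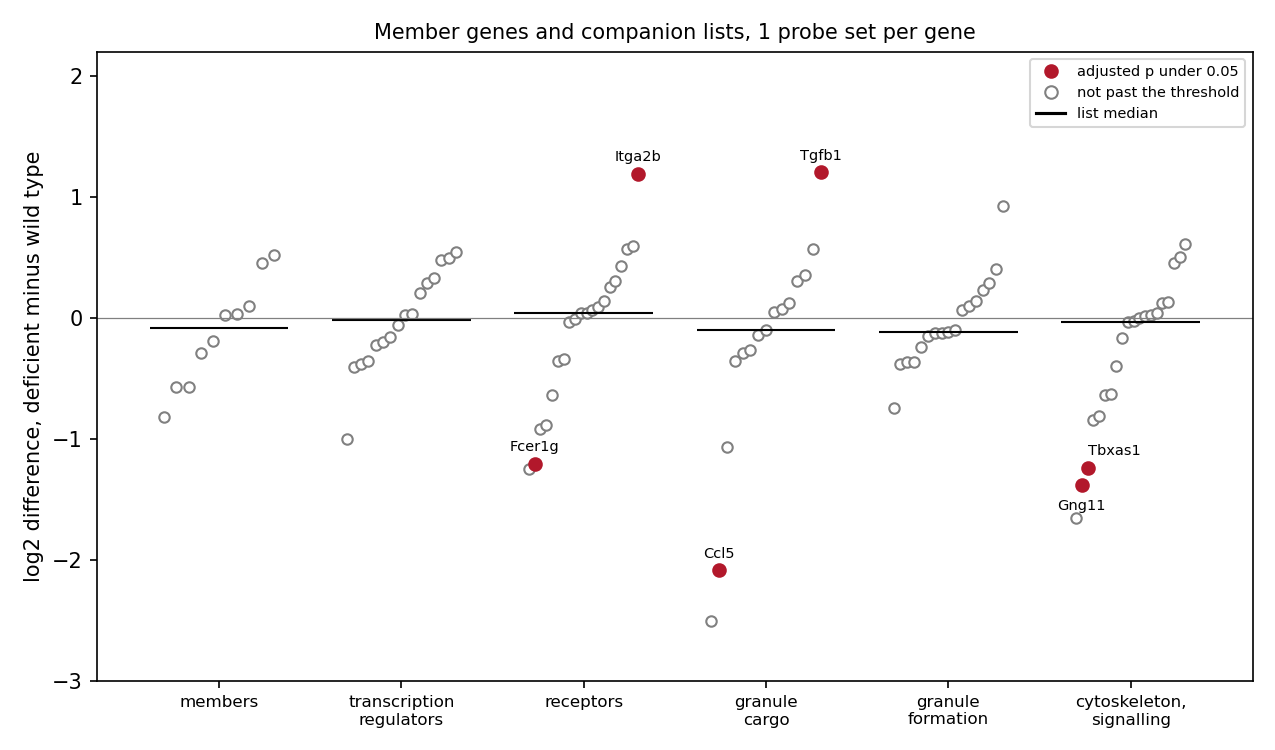
Log2 difference, deficient minus wild type, of each member gene and each gene of the 5 companion lists, 1 probe set per gene, sorted within a list; filled red points have a limma adjusted p under 0.05 and black lines are list medians. Filled points number 0 among the members and 6 among the companion genes.

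The regulators that build the lineage changed in no case past the threshold. Of 16 transcription regulator genes, 0 passed in limma, where before adjustment 2 were higher (12.5%, against 8.79% of all genes) and 1 lower (6.25%, against 9.86%) at p under 0.05. Gata1, the master factor of megakaryocytes and red cells, read 10.02, 9.28 and 9.78 on deficient arrays, against 8.85 and 9.56 on wild type arrays (difference 0.49, limma adjusted p = 0.449). Its cofactor gene Zfpm1 (FOG1) differed by 0.54 (limma adjusted p = 0.0970) and Gata2 by 0.48 (limma adjusted p = 0.109). The groups did not overlap for 3 of the 16 regulators in the higher direction, Zfpm1 and Gata2 among them. In the lower direction they did not overlap for 3, Ets1 and Nfe2 among them. Of all 18193 genes, 2996 did not overlap in the higher and 3381 in the lower direction. Ets1, a factor of the ETS family, differed by -1.0 (limma adjusted p = 0.0578). The differences were 0.29 for Fli1, 0.03 for Runx1, -0.41 for Nfe2 and -0.38 for the repressor gene Gfi1b (limma adjusted p of at least 0.289 for each). A dimmer Fli1 probe set differed by -0.09, so Fli1 has no agreed sign. Of 17 granule formation genes 0 passed as well, where before adjustment 1 was higher and 1 lower (5.88% each, against 8.79% and 9.86% of all genes) at p under 0.05. Hps4 and Bloc1s6, genes of lysosome-related organelle complexes, differed by 0.40 and -0.37, and Vipas39, needed for alpha granules, by -0.37 (limma adjusted p of at least 0.208 for each).

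Within the deficient group, deficient array 2 was the lowest of the 3 for 10 of the 16 transcription regulators (62.5%), beside 35.3% of all genes, and for 4 of the 10 members. Those 4 members were Pf4, Vwf, Gp9 and Gp5. The same array was the highest of the 3 for 4 other members, Selp, Cd9, Gp6 and Thbs1 (40.0%, beside 36.9% of all genes). The erythroid markers, whose lineage shares GATA1, had a summed intensity of 2400, 598 and 863 on deficient arrays 1 to 3, against 1150 and 1990 on wild type arrays. Their red cell defining genes Hba-a1, Alas2 and Slc4a1 were below the array median on all arrays. Probe sets that name several alpha or beta globin genes at once were left out. The globin level as a whole is therefore not given here.

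Of the defining megakaryocyte markers 6 of 8 had a lower mean in deficient cells, with a median difference of -0.43, while Itga2b rose. The list holds 8 measured genes (Pf4, Ppbp, Itga2b, Gp9, Gp1bb, Tubb1, Treml1 and Vwf), none of them below the array median on all arrays, though Ppbp and Tubb1 were below it on 1 array each. The other 7 did not pass, and the 1 that rose is 12.5% of the 8, against 0.830% of all genes. The summed intensity was 5840, 4740 and 6330 on deficient arrays, against 5250 and 5250 on wild type arrays. Those sums interleave through Itga2b, the brightest of the 8: without it the sums were 3500, 2110 and 3280 on deficient arrays, all below 4090 and 4080 on wild type arrays. The sum without Itga2b was added after the values were seen. Pf4, the next brightest, is the largest part of it on every array, so it largely repeats the Pf4 values. Apart from Itga2b, Gp1bb had a higher mean in deficient cells (difference 0.43), and Treml1 was nearly level (-0.01). Tubb1 differed by -0.85 (limma adjusted p = 0.0720). Before adjustment, 1 of the 8 (12.5%) was higher and 1 (12.5%) lower at p under 0.05 in limma, against 8.79% and 9.86% of all genes. Mast cell and basophil markers had a summed intensity of 1940 to 4000 on deficient and 968 to 1550 on wild type arrays, with 4 of 5 means higher. Of the 5, 1 fell (Prg2), or 20% against 1.41% of all genes, and 4 did not pass. Before adjustment, those 4 (80%) were higher and 1 (20%) lower at p under 0.05 in limma, against 8.79% and 9.86% of all genes. B and plasma cell markers summed to 980 to 1200 on deficient and 14800 to 28200 on wild type arrays. Of these 7 genes, 2 fell (Igha and Jchain), or 28.6% against 1.41% of all genes. Before adjustment, 0 were higher and 4 (57.1%) lower at p under 0.05 in limma, against 8.79% and 9.86% of all genes. The part of these cell types in the member values was not tested.

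**Figure D5:**
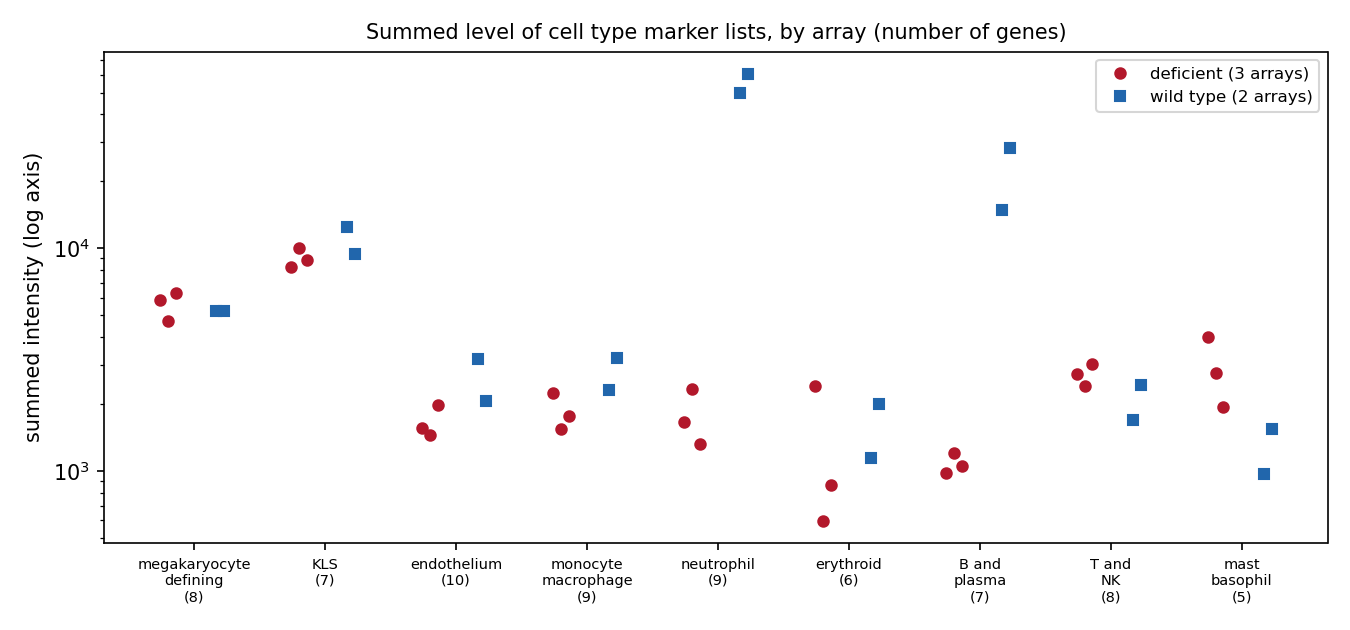
Summed linear intensity of each cell type marker list on the 3 deficient arrays (red circles) and the 2 wild type arrays (blue squares), on a log axis, 1 probe set per gene. The megakaryocyte sums of the groups interleave, at 4740 to 6330 on deficient and 5250 on both wild type arrays. Without Itga2b, not drawn, the deficient sums all lie below the wild type ones, and Pf4 is then the largest part of each sum. The neutrophil and the B and plasma cell sums lie far apart.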

How the data were processed

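Total RNA of sorted KLS cells was labelled and read on Affymetrix arrays of the mouse genome, per the labels' protocols. The authors deposited 1 intensity value per probe set and array, which the submitters' processing notes credit to RMA, a multi-array average of background-corrected probes; its software version is not given in the sources used here. RMA sets arrays to a common distribution, so a shift of all transcripts would not be seen. The deposited values ran from 6.96 to 31249 and log2 was taken here. Arrays have no read depth: their number limits the precision. Groups follow the array titles.

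Limma 3.58.1 in R 4.3.3 (lmFit, eBayes, two-sided, no covariate) was fitted to 45037 probe sets, leaving out 64 AFFX controls, with Benjamini-Hochberg adjustment over all of them, and again to 1 probe set per gene (highest mean, 18193 genes). The threshold was an adjusted p under 0.05. The code was tested on simulated data. Names come from GEO's platform annotation: 34945 probe sets had 1 symbol, 932 several and 9160 none listed; 1 probe set naming Thbs1 with another gene was left out. Promoter windows and neighbouring genes are from RefSeq (GRCm38.p6); the array files name no build. The members and lists were chosen with earlier results of these data known. Companion genes were named as up to 4 per list by smallest unadjusted p, plus a fixed set of receptor subunits and regulators; other names in marker lists are those that passed, the brightest, or those below the array median on all arrays. Sums add linear intensities. Within-array ratios got an exact permutation test (10 arrangements of the arrays). Tried as alternatives were cyclic loess, quantile normalization once more, centring on medians, log2(value + 16), filters on dim and on _x_at or _s_at probe sets, an intensity trend, a robust prior, array weights, other thresholds, the replicate number as a block, the mean of a gene's probe sets and leaving out each array.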

Additional observations from a re-analysis of the deposited data

How the results depend on the processing

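The count of member probe sets past the threshold in limma was 0 under each alternative run, and so was the count of member genes. The companion genes past the threshold numbered 6 with all arrays, 16 at an adjusted p under 0.1, and 0 to 4 with 1 array left out; where that leaves 1 wild type array, it is assumed to vary like the others. The share of all genes past the threshold under each alternative is not given here. These counts therefore do not set the companion genes apart from other genes. With the replicate number as a block the companion count was 0. The labels do not say that a number marks a pair, and deviations from the group means did not go together by number (r = -0.05 and -0.02), so the numbers were not taken to pair arrays. The median difference over member genes was -0.24 in place of -0.08 when dim probe sets were left out, which drops Gp6 and Thbs1. With 1 array left out the median ran from -0.16 to -0.07.

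Signs turned mainly for differences near 0, and for Bloc1s6. With 1 array left out, Gp6 ran from -0.08 to 0.14, Thbs1 from -0.10 to 0.08 on its dimmer and from -0.16 to 0.21 on its brighter probe set, Plek from -0.09 to 0.29 on its brightest and Runx1 from -0.13 to 0.28. Runx1 was -0.01 after quantile normalization, after cyclic loess and as the mean of its probe sets, and -0.13 with the replicate block. Thbs1 on its dimmer probe set was 0.01 after median centring and 0.00 with array weights, and Bloc1s6 was 0.03 as the mean of its probe sets, in place of -0.37. The cause was not tested. Of 637 recomputed differences of named probe sets and genes, 582 kept direction and side of the threshold, 33 fell short of it, 5 newly passed and 17 turned. Clec1b was among those newly past it, with an intensity trend (limma, adjusted p = 0.0309). Of the 41 named differences, only those of the 6 companion genes past the threshold with all arrays could fall short of it. All 33 that fell short are therefore theirs.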
